A study of Mus musculus with 2 samples.

Results

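Steroid reductases and hydroxysteroid dehydrogenases set which steroid hormone a cell holds, and they were followed here in luminal epithelial cells of the mouse prostate. The genes were taken by symbol: the reductases Srd5a1, Srd5a2 and Srd5a3, the dehydrogenases Hsd17b4, Hsd17b7, Hsd17b10, Hsd17b11, Hsd17b12 and Hsd11b1, and the steroid sulfatase gene Sts. Of these 10 symbols, 9 matched 1 row each of the 18724 rows of the deposited table, and Sts was not analysed here. All 9 had a mean normalised count of at least 10, the minimum for a gene to be called measured, as had 17183 genes of the table.

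RNA came from normal prostates of mice aged 18 weeks whose cells carried green fluorescent protein (GFP) on histone 2B, a label that is diluted at each cell division. Luminal cells sorted as GFP-positive are the label-retaining cells and luminal cells sorted as GFP-negative the non-retaining cells, with 1 library of each. The sources used here do not say which promoter drove the transgene, how long the label was chased, which surface markers defined the sort or how many mice were pooled. The title of the study describes the label-retaining cells as progenitors that withstand castration, and the comparison asks how their expression differs from that of the other luminal cells.

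In the prostate, testosterone from the blood is reduced to dihydrotestosterone, a more potent androgen, and this step is made by the enzymes of Srd5a1 and Srd5a2. Dehydrogenases of the Hsd17b family interconvert the keto and hydroxyl forms at position 17 of the steroid, but several members serve mainly in fatty acid, cholesterol or amino acid metabolism. The enzyme of Hsd11b1 regenerates the active glucocorticoid from its inactive keto form, and the sulfatase encoded by Sts frees steroids from their sulfate store.

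The label-retaining library held 50689229 reads and the non-retaining library 48334265. With 1 library per group no test between the groups was possible. Each log2 ratio below is the label-retaining over the non-retaining normalised count with a pseudocount of 0.5 added to both, and each interval is an exact 95% Clopper-Pearson interval that covers counting error only. A gene was called higher or lower when it was at least 2-fold apart and its interval excluded equality. In bulk libraries fewer cells of a type and less RNA per cell cannot be told apart.

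The libraries differed in RNA of marker genes of other cell types as well. Label-retaining cells had less RNA of all 12 of 12 basal marker genes, with a summed normalised count of 54074 against 469971 and none at 0. All 8 of 8 smooth muscle markers were lower (1901 against 24121 in sum, none at 0). Of 10 fibroblast markers 5 were lower and 2 higher (22182 against 98835 in sum, none at 0), and of 7 endothelial markers 5 were lower and 0 higher. Leukocyte markers had 5 lower and 3 higher of 10, with Gzma at 0 reads in the label-retaining library. The 7 seminal vesicle genes were all higher (84299 against 768 in sum), and 2 of them had 0 reads in the non-retaining library. Luminal markers were present in both libraries, with 5 higher and 0 lower of 10. For each marker list the shares over all measured genes were 19.4% lower and 14.5% higher. Whether other cell types were present, and what part they had in the steroid enzyme values, was not tested.

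By the size rule 4 of the 9 genes were lower in the label-retaining library (Srd5a1, Srd5a2, Hsd17b7 and Hsd11b1), 1 was higher (Hsd17b11) and 4 were neither. Among all measured genes 19.4% were lower and 14.5% higher by the same rule. The median log2 ratio of the 9 genes was -0.47, and that of all measured genes -0.0052. The ratios ran from -4.77 for Hsd11b1 to 2.06 for Hsd17b11. Scaled on the luminal keratin genes Krt8 and Krt18, which moves every ratio by -0.78 and the median of all measured genes to -0.80, 5 of the 9 were lower and 1 higher, where 41.3% of all measured genes were lower and 5.23% higher.

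**Figure D1:**
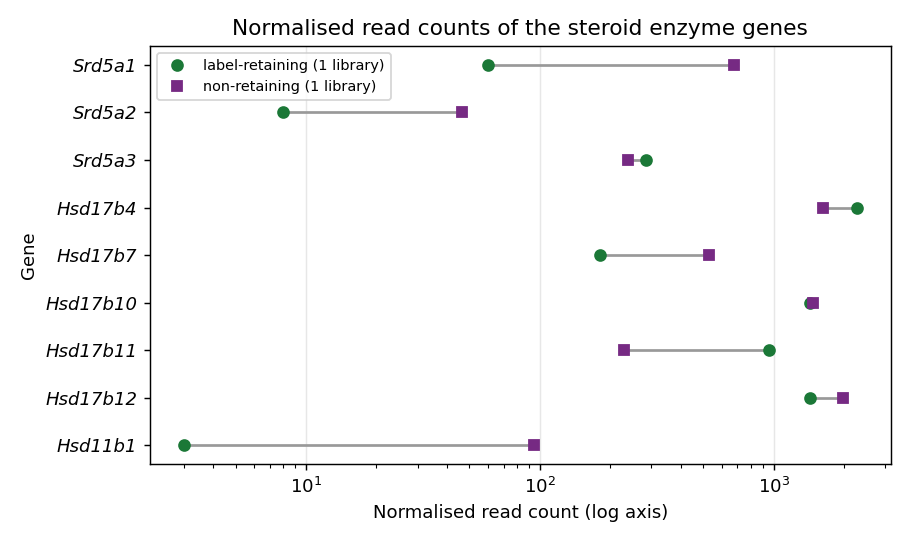
Normalised read count of each gene in the 1 label-retaining library (circles) and the 1 non-retaining library (squares), on a log axis. Hsd11b1, Srd5a1 and Srd5a2 lie farthest to the left in the label-retaining library, at 2.99, 59.9 and 7.98 normalised counts, and Hsd17b11 is the 1 gene with a call in the other direction.

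The sequences upstream of the RefSeq starts of the 5 called genes are shown first, since these are the genes whose RNA differed most between the libraries. Each is the window of 250 bases before the RefSeq start site on GRCm38.p6, written 5′ to 3′ on the strand of the gene, with the CCAAT box (CCAAT or ATTGG) and the steroid response hexamer (AGAACA or TGTTCT) in capitals. The windows lie at chr13:69611464-69611713 (Srd5a1), chr17:74047861-74048110 (Srd5a2), chr1:193242361-193242610 (Hsd11b1), chr1:169969206-169969455 (Hsd17b7) and chr5:104021797-104022046 (Hsd17b11). All 5 genes are on the minus strand. The RefSeq starts of Srd5a2, Hsd17b7, Hsd17b11 and Hsd11b1 lie inside the longer spans that GENCODE gives these genes. The windows of Srd5a2, Hsd17b7 and Hsd17b11 thus overlap the annotated gene in part, at the end next to the RefSeq start. The window of Hsd11b1 lies wholly within its gene and belongs to an internal start.
Srd5a1: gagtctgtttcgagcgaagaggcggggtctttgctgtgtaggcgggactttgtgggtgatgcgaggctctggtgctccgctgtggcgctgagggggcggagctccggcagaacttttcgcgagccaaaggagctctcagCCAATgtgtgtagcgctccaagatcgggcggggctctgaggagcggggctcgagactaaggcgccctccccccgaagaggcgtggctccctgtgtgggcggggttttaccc
Srd5a2: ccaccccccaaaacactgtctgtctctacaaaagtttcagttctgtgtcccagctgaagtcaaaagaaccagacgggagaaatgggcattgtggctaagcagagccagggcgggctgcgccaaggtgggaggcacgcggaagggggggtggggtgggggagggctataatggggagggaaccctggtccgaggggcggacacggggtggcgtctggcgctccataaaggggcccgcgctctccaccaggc
Hsd11b1: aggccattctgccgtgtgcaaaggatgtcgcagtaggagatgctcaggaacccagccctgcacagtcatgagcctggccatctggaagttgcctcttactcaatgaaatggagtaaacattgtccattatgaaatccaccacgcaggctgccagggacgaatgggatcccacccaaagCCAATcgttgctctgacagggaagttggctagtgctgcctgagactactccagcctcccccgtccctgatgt
Hsd17b7: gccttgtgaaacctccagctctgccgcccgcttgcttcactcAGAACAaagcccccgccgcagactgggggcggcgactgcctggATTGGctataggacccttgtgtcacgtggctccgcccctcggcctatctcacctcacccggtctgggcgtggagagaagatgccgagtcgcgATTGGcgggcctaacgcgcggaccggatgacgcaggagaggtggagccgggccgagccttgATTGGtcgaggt
Hsd17b11: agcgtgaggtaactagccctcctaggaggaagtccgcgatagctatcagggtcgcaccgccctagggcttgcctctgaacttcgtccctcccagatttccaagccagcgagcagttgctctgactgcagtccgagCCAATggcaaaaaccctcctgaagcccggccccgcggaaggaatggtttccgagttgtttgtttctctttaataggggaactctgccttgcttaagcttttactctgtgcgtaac

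A CCAAT box, searched on both strands, was found in 4 of these 5 windows and in 6 of the 8 windows of the gene set that were searched (Hsd17b4 was not searched). It was found in 34.7% of the 15041 windows of measured genes in the same table. The Hsd17b7 window held 3 such boxes, at 165, 73 and 12 bases before the RefSeq start. It was also the 1 window of the 8 with a steroid response hexamer, at 208 bases. That hexamer was found in 11.2% of the windows of measured genes, and its full palindrome, AGAACA and TGTTCT spaced by 3 bases, in 0 of the 8. The motif CCACG (or CGTGG) was found in 4 of the 8 windows and in 39.7% of those of measured genes, and AGGTCA (or TGACCT) in 0 of 8 and 11.2%. The Srd5a2 window held no CCAAT box. These are matches of letters and not shown to be binding sites. The window of Hsd17b12 had the highest ratio of observed to expected CpG of the 8, at 1.30, which lay at percentile 99.8 of the windows of measured genes, whereas that of Hsd11b1 had the lowest, at 0.326 and percentile 19.9.

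Srd5a1 encodes the type 1 steroid reductase that makes dihydrotestosterone (ENSMUSG00000021594.10, chromosome 13, 69573449 to 69611442, minus strand, mm10). It had 60 reads from the label-retaining cells and 745 reads from the non-retaining cells, or 59.9 and 678 normalised counts. The label-retaining level was thus lower, at a log2 ratio of -3.49 (interval -3.91 to -3.12), and 3.75% of measured genes had a ratio as low or lower. All 2909 exonic bases of Srd5a1 lie within the span of Nsun2 on the other strand, without exon overlap. Nsun2, an RNA methyltransferase gene, had 5644 and 6269 reads and a log2 ratio of -0.02 (-0.07 to 0.03). Of the same exonic bases 16.4% are shared with the same-strand transcript Gm17108, which had 5 and 16 reads.

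Srd5a2 encodes the type 2 reductase, the isozyme whose loss impairs prostate development (ENSMUSG00000038541.7, chromosome 17, 74016955 to 74047916, minus strand). It had 8 reads against 51, or 7.98 against 46.4 normalised counts. Its log2 ratio was -2.47 (-3.83 to -1.45), again lower in the label-retaining library but with a wide interval from few reads. A pseudocount of 5 gave -1.98. Of the exonic bases of Srd5a2, 8.97% are shared with the same-strand transcript CT025731.1, which had no matching row. The part of this overlap in the Srd5a2 count was not tested. Whether Srd5a1 and Srd5a2 differed from each other in their ratio could not be told: the level of Srd5a1 per length was 4.14 times that of Srd5a2 among label-retaining and 8.06 times among non-retaining reads, and the 95% Wald interval of the fold change between these quotients, 0.883 to 4.29, included equality.

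Srd5a3 encodes the polyprenol reductase that makes dolichol, the lipid carrier on which N-glycans are assembled (ENSMUSG00000029233.14, chromosome 5, 76140271 to 76155504, plus strand). It had 286 reads against 263, or 285 against 239 normalised counts. The log2 ratio of 0.25 (0.01 to 0.50) was under 2-fold, and it was -0.53 under the keratin scaling. Srd5a3 thus stood apart from the other two reductases. The level of Srd5a1 per length was 4.53 times that of Srd5a3 in the non-retaining library and 0.335 times in the label-retaining library, a 13.5-fold difference between the quotients (95% Wald interval 9.89 to 18.4) that no scaling of the libraries can alter. Srd5a1 made up 74.3% of the summed per-length level of the 3 reductase genes in the non-retaining library and 23.7% in the label-retaining library, while Srd5a3 made up 16.4% and 70.6%.

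Genes that work with Srd5a3 were counted next. Of 21 measured genes of dolichol synthesis and N-glycan assembly, 5 were higher and 1 was lower under the deposited scaling, where 14.5% and 19.4% of all measured genes were. Under the keratin scaling 0 were higher and 2 lower, where 5.23% and 41.3% of all measured genes were. The median log2 ratio of 0.62 became -0.16, where that of all measured genes was -0.80. Dpagt1, which adds the first sugar to dolichol phosphate, was at 1.63 (1.49 to 1.78), Alg2, a mannosyltransferase gene, at 1.29 (1.14 to 1.44) and Dhdds, a subunit of the enzyme that builds the polyprenol chain, at 1.17 (1.08 to 1.26). Alg13 was lower at -1.23 (-1.52 to -0.96). Srd5a3, at 0.25, lay below the median of this list.

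**Figure D2:**
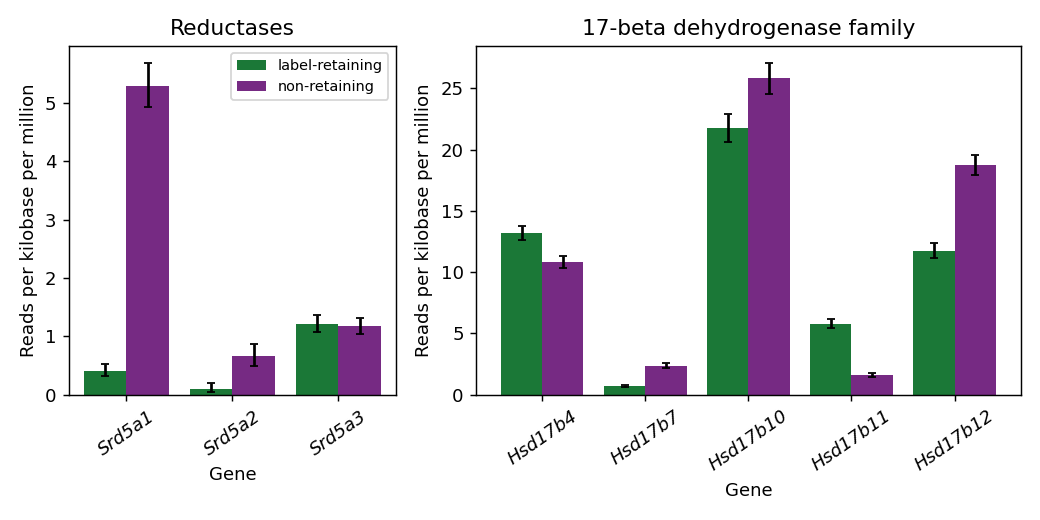
Level per length (RPKM, reads scaled to exon length and library total) of the 3 reductase genes (left) and the 5 Hsd17b genes (right) in the label-retaining and the non-retaining library. Bars give the level in 1 library and error bars the exact 95% Poisson counting interval. Srd5a1 stands at 5.30 in the non-retaining and 0.407 in the label-retaining library, while Srd5a3 is at 1.17 and 1.21.

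Hsd11b1 had the lowest ratio of the set (ENSMUSG00000016194.13, chromosome 1, 193221634 to 193264075, minus strand). It had 3 label-retaining and 104 non-retaining reads, or 2.99 and 94.6 normalised counts. The log2 ratio was -4.77, with a counting interval of -7.28 to -3.39 that the 3 reads leave wide, and a pseudocount of 5 gave -3.64. Of all measured genes 1.20% had a ratio as low or lower. All 4251 exonic bases of Hsd11b1 lie within the span of Lamb3, a basal laminin gene on the other strand, without exon overlap. Lamb3 had 980 and 20139 reads and a log2 ratio of -4.23 (-4.32 to -4.13), inside the interval of Hsd11b1. The sources used here do not state whether the authors counted by strand, and the part of Lamb3 RNA in the Hsd11b1 count was not tested.

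Genes that act with Hsd11b1 differed in direction among themselves. H6pd, which supplies NADPH to this enzyme in the endoplasmic reticulum, was higher at 1.33 (1.26 to 1.39). Hsd11b2, whose enzyme runs the opposite reaction, had 4 reads against 27 and was lower at -2.48 (-4.60 to -1.10). Nr3c1, the glucocorticoid receptor gene, was lower at -1.21 (-1.28 to -1.14), and Nr3c2, the mineralocorticoid receptor gene, was higher at 2.08 (1.95 to 2.21). The reductases and Hsd11b1 draw on NADPH. Among 10 measured genes of NADPH supply there were 4 higher and 2 lower ones, where 14.5% and 19.4% of all measured genes were. Their median was 0.63, and -0.15 under the keratin scaling, where that of all measured genes was -0.80. Me1, the cytosolic malic enzyme gene, was at 1.77 (1.66 to 1.88). G6pdx, of the pentose phosphate pathway, was at 1.48 (1.41 to 1.55) and Idh1 at 1.44 (1.36 to 1.53). The lower ones were Mthfd1 at -1.26 (-1.36 to -1.17) and Nnt at -1.11 (-1.22 to -0.99).

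Hsd17b11 was the 1 gene of the set called higher (ENSMUSG00000029311.15, chromosome 5, 103989762 to 104021919, minus strand). Its enzyme sits on lipid droplets and oxidises androstanediol, a breakdown product of dihydrotestosterone, to androsterone. It had 955 reads against 251, or 953 against 228 normalised counts. The label-retaining library was thus 4.17-fold higher (interval 3.63 to 4.82), a log2 ratio of 2.06 (1.86 to 2.27), and 4.10% of measured genes had a ratio as high or higher. Under the keratin scaling it was at 1.28 and still called higher. Of 13 measured lipid droplet genes 0 were higher and 3 lower (median -0.13), where 14.5% and 19.4% of all measured genes were. Plin4 was at -3.41 (-3.83 to -3.04), Dgat1, which makes triglyceride, at -2.45 (-2.60 to -2.30) and Plin2 at -1.20 (-1.42 to -0.98). Plin3, the most abundant of the list, was at 0.95 (0.88 to 1.01).

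Hsd17b7 encodes a keto-reductase of late cholesterol synthesis that can also reduce oestrone to oestradiol (ENSMUSG00000026675.11, chromosome 1, 169949535 to 169969241, minus strand). It had 182 reads against 581, or 182 against 529 normalised counts. The log2 ratio was -1.54 (-1.79 to -1.30), so that the label-retaining library was lower. An antisense transcript, 3110045C21Rik, starts 168 bases from the annotated start of Hsd17b7 on the other strand and had 3 and 10 reads. Other genes of late cholesterol synthesis were divided, with 2 of 12 higher and 2 lower (14.5% and 19.4% of all measured genes). Their median was 0.09, and -0.70 under the keratin scaling, where that of all measured genes was -0.80. Lbr, a sterol reductase of the nuclear envelope, was at -2.01 (-2.13 to -1.90), whereas Dhcr7 was at 1.20 (0.95 to 1.45) and Tm7sf2 at 1.01 (0.77 to 1.25). Nsdhl, which acts on the sterol just before Hsd17b7, was not called at 0.86 (0.65 to 1.08).

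Hsd17b4, Hsd17b10 and Hsd17b12 were under 2-fold apart. Hsd17b4, the multifunctional enzyme of peroxisomal fatty acid oxidation (ENSMUSG00000024507.6, chromosome 18, 50128201 to 50196269, plus strand), had 2275 reads against 1781, or 2270 against 1620 normalised counts. Its log2 ratio was 0.49 (0.40 to 0.58), and -0.30 under the keratin scaling. Its partners in the peroxisome had 4 higher and 0 lower of 18 measured genes, where 14.5% and 19.4% of all measured genes were. Their median was 0.70, and -0.14 under the keratin scaling, where that of all measured genes was -0.80. Ehhadh, which encodes the other bifunctional enzyme of the peroxisome, was at 1.96 (1.84 to 2.09) and Pecr at 1.25 (1.03 to 1.47).

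Hsd17b10 encodes a mitochondrial dehydrogenase of isoleucine breakdown that is also a subunit of mitochondrial RNase P (ENSMUSG00000025260.9, chromosome X, 152001845 to 152004442, plus strand). It had 1431 reads against 1620, or 1428 against 1474 normalised counts. The log2 ratio of -0.05 (-0.15 to 0.06) was the nearest to 0 of the set, and the interval held equality. It was -0.83 under the keratin scaling. Of 11 measured genes of these mitochondrial pathways 1 was higher and 0 were lower (median 0.13), against 14.5% and 19.4% of all measured genes. The higher one, Bckdha, of branched-chain keto acid oxidation, was at 1.36 (1.30 to 1.42), and Trmt10c, another RNase P subunit, was at -0.28 (-0.42 to -0.14).

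Hsd17b12 encodes the keto-reductase of very long chain fatty acid elongation (ENSMUSG00000027195.9, chromosome 2, 94032689 to 94157964, minus strand). It had 1431 reads against 2178, or 1428 against 1981 normalised counts. Its log2 ratio was -0.47 (-0.57 to -0.38), under 2-fold with the deposited scaling, but -1.25 and called lower with the keratin scaling. In the elongation cycle 0 of 11 measured genes were higher and 2 lower (median -0.15), against 14.5% and 19.4% of all measured genes. The lower ones were Elovl6 at -3.29 (-3.57 to -3.03) and Elovl4 at -1.09 (-1.84 to -0.41). Tecr, the reductase of the last step and the most abundant of the list, was at 0.46 (0.39 to 0.52). The level of Hsd17b11 per length was 0.492 times that of Hsd17b12 for label-retaining and 0.085 times for non-retaining cells, a 5.79-fold difference (95% Wald interval 4.96 to 6.76).

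**Figure D3:**
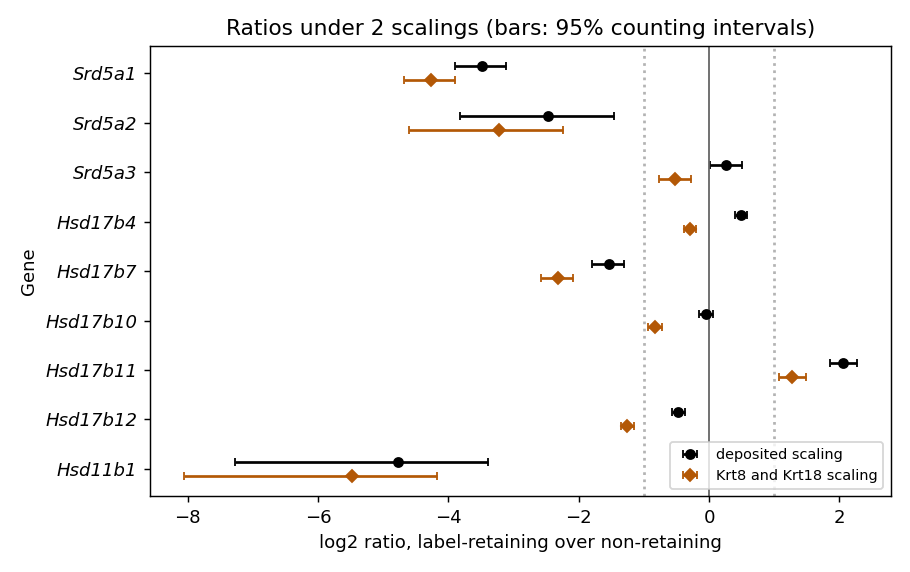
Log2 ratio of each gene, label-retaining over non-retaining, with the deposited scaling (circles) and with scaling on Krt8 and Krt18 (diamonds). Bars are 95% counting intervals and dotted lines mark 2-fold. Srd5a1, Srd5a2, Hsd17b7 and Hsd11b1 lie beyond 2-fold on the lower side and Hsd17b11 on the higher side with both, whereas Srd5a3 and Hsd17b4 cross 0.

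Levels per length (RPKM, reads scaled to exon length and library total) put Hsd17b10 first in both libraries, at 21.7 RPKM in label-retaining and 25.8 RPKM in non-retaining cells. This was percentile 90.4 and 91.1 of the 17111 measured genes with a known exon length. In the label-retaining library Hsd17b4 followed at 13.2, then Hsd17b12 at 11.7, Hsd17b11 at 5.77, Srd5a3 at 1.21, Hsd17b7 at 0.703, Srd5a1 at 0.407, Srd5a2 at 0.098 and Hsd11b1 at 0.014. All neighbours in this order were apart by their exact 95% Poisson counting intervals. In the non-retaining library the order was Hsd17b12 at 18.7, Hsd17b4 at 10.8, Srd5a1 at 5.30, Hsd17b7 at 2.36, Hsd17b11 at 1.59, Srd5a3 at 1.17, Srd5a2 at 0.657 and Hsd11b1 at 0.506. There Srd5a2 and Hsd11b1 overlapped in their counting intervals, and the other neighbours did not. Srd5a1 stood at percentile 64.1 of measured genes in the non-retaining and 25.9 in the label-retaining library, and Hsd17b11 at 41.1 and 68.8.

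The remaining enzymes of steroid turnover were counted from lists. For each list the shares over all measured genes were 14.5% higher and 19.4% lower. Of 30 further hydroxysteroid dehydrogenase genes and relatives, 13 had a row and 11 were measured, of which 1 was higher and 2 lower. Their median was 0.48, and -0.30 under the keratin scaling, where that of all measured genes was -0.80. Dhrs9, a dehydrogenase of steroids and retinoids, was lower at -2.68 (-2.99 to -2.39), beside Hsd11b2, and Akr1c12 was higher at 1.04 (0.67 to 1.41). Hsdl2, the most abundant of the list, was at 0.84 (0.77 to 0.92). Of 9 measured steroid synthesis genes 1 was higher and 2 lower (median -0.19), with Cyp17a1, the enzyme that opens the androgen branch, at 5 reads against 401 and Por, the electron donor of microsomal P450 enzymes, at -1.66 (-1.69 to -1.64). Cyb5b was higher at 1.36 (1.32 to 1.41). Of 6 marker genes of steroid-producing cells 3 were measured, and apart from Cyp17a1 these were Star with 79 and 99 reads and Nr5a1 with 14 and 16.

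The 9 genes for steroid receptors and their chaperones included 3 higher and 1 lower. Their median of 0.45 was -0.34 under the keratin scaling, where that of all measured genes was -0.80. Esr2 and Pgr, of the oestrogen and progesterone receptors, were higher at 2.03 (1.60 to 2.51) and 1.09 (0.55 to 1.67), and Hsp90ab1, the most abundant, was at 0.10 (0.09 to 0.11). Over all 11 pathway lists, 23 of 137 measured genes were higher (16.8%) and 20 lower (14.6%), and their median was 0.33. Of all measured genes 14.5% were higher and 19.4% lower. The 4 lower steroid enzyme genes ran from -4.77 to -1.54, and 13.1% of all measured genes had a ratio of -1.54 or lower. The 12 basal markers ran from -4.78 to -1.17 and the 10 fibroblast markers from -4.68 to 1.53. The 8 smooth muscle markers ran from -4.53 to -2.145 and the 10 luminal markers from -0.79 to 2.50. The part of other cell types in the lower values was not tested.

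**Figure D4:**
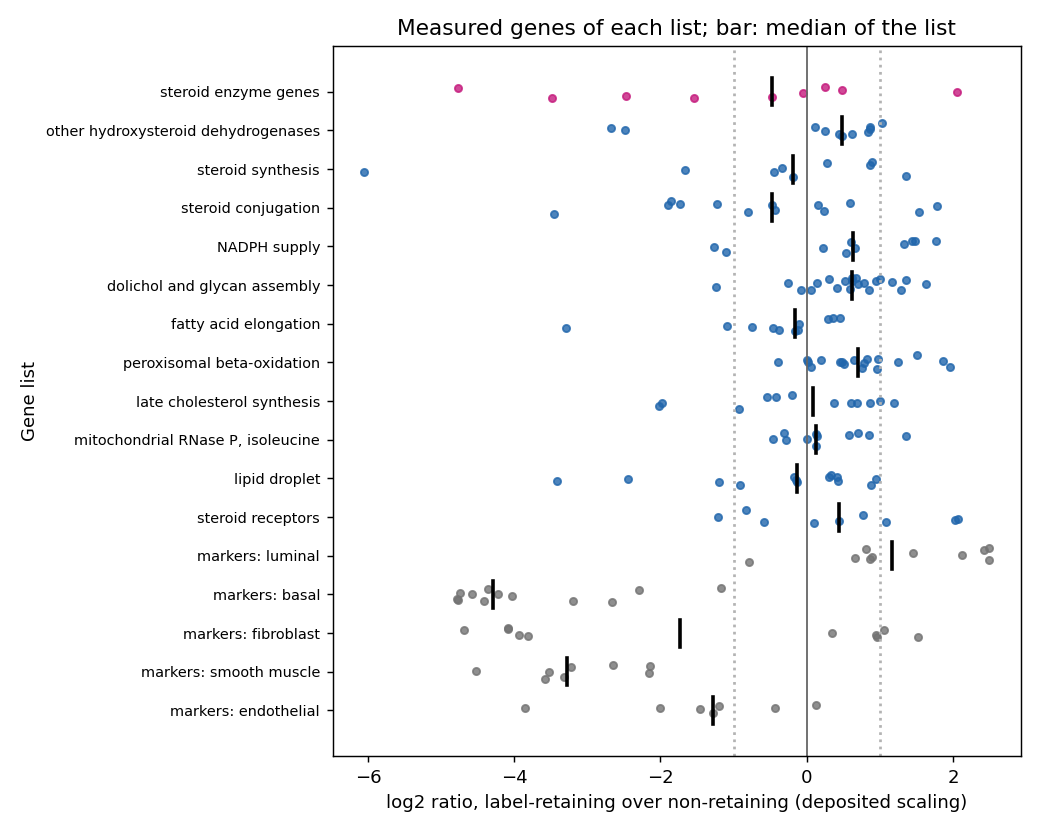
Log2 ratio of each measured gene (points) in the steroid enzyme set, the 11 pathway lists and 5 marker lists, under the deposited scaling. The median of each list is a bar. Markers of leukocytes (down to -11.99), seminal vesicle (up to 7.78) and steroid-producing cells (down to -6.06) are not drawn. The basal markers lie at a median of -4.29 and the luminal markers at 1.17, and the steroid enzyme genes run from -4.77 to 2.06.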

How the data were processed

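RNA of 2 sorted luminal populations was sequenced from Illumina TruSeq Stranded Total RNA libraries, per the labels' protocols, with 1 library each. The deposited values are a normalised signal: gene read counts that the authors divided by 1 size factor per library, as the values show. In each column 100% of values were whole multiples of 1 step (largest deviation 5.2e-10 and 5.6e-09 reads), with size factors of 1.00 and 1.10. Tools listed by the submitters' processing notes, with no role, are DESeq 1.16.0, HTSeq 0.6.0, Bowtie2 2.1.0, TopHat2 2.0.10 and CASAVA 1.8.2, with the mm10 build. Annotation, strand setting and row choice: not given in the sources used here.

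Symbols and exon lengths came from GENCODE release M21 (GRCm38, also called mm10), matched by identifier without its version (18634 of 18724). Ratios, intervals and levels were computed with numpy 2.4.6, scipy 1.17.1 and pandas 2.3.3 and tested on simulated data. Members of the gene set and all lists were chosen with earlier results of these data known. All members are named, and of each pathway list up to 3 called genes per direction by interval bound and the most abundant gene. Trmt10c and Nsdhl were added after their values were seen, and so were Star and Nr5a1. Of 173 pathway symbols 32 had no matching row and were not analysed here. A planned comparison of protein sequences was not run. Some planned items are not reported here. Other scalings, pseudocounts, filters and folds were tried.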

Additional observations from a re-analysis of the deposited data

How the results depend on the processing

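No paired analysis was possible because each group had 1 library. Under each alternative scaling and pseudocount the 5 called genes of the set kept their direction and call. Scaling to library totals moved every ratio by -0.20 and the median of all measured genes to -0.21. The ratio was then 0.28 for Hsd17b4, -0.25 for Hsd17b10, 1.86 for Hsd17b11 and -0.67 for Hsd17b12, and the median of the set was -0.67. With the keratin scaling the ratio was -4.27 for Srd5a1, -0.53 for Srd5a3, -0.30 for Hsd17b4, -2.32 for Hsd17b7, -0.83 for Hsd17b10, 1.28 for Hsd17b11 and -1.25 for Hsd17b12, and the median was -1.25. Srd5a3 and Hsd17b4 thus changed sign under it, and Hsd17b12 became the 5th lower gene, where 41.3% of all measured genes were lower. The median of all measured genes was -0.80 under this scaling. A minimum mean count of 50, which leaves out Srd5a2 and Hsd11b1, gave 2 lower genes and 1 higher gene in the set. The median of the set was then -0.045. At this minimum 17.5% of all measured genes were lower and 13.5% higher, and their median was 0.022. Of the pathway genes 4 were higher and 39 lower with the keratin scaling, where 5.23% and 41.3% of all measured genes were. At 1.5-fold 53 were higher and 24 lower (24.2% and 26.8% of all measured genes). At 4-fold 2 were higher and 8 lower (4.32% and 9.64% of all measured genes). Such shifts follow from the construction of each alternative. At 4-fold 1 gene of the set was higher and 3 were lower, without Hsd17b7, where 4.32% and 9.64% of all measured genes were. Median-of-ratios factors, a 1.5-fold threshold and a pseudocount of 5 changed no call in the set. The 3 reads of Hsd11b1 and the 8 of Srd5a2 in the label-retaining library limit how far these ratios can be told.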

Other observations

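Among 13 measured genes that conjugate or clear steroids there were 2 higher and 5 lower, against 14.5% and 19.4% of all measured genes. The median log2 ratio was -0.47, and -1.26 under the keratin scaling, where that of all measured genes was -0.80. Sult2b1, a sulfotransferase of hydroxysteroids and cholesterol, had 28 reads against 342 (-3.45, interval -4.09 to -2.92), and Papss2, which makes the sulfate donor, had 5837 against 23275 (-1.86, -1.90 to -1.82). Cyp1b1, an oestrogen hydroxylase gene, was at -1.73 (-2.20 to -1.30). The glucuronosyltransferase genes Ugt2b35 and Ugt2b34 were higher, at 1.79 (1.44 to 2.16) and 1.54 (1.20 to 1.89), but these genes have close relatives whose reads may have been split. Sumf1, whose product activates sulfatases such as that of Sts, was at 0.59 (0.47 to 0.72), and was named after its value was seen.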
